A study of Homo sapiens with 6 samples.

Results

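Transcripts of 9 genes of the interleukin-6 (IL6), colony-stimulating factor (CSF) and interleukin-1 (IL1) systems were followed in the EWS-FLI1 fusion-positive Ewing sarcoma line A673 after siRNA against FLI1. The genes are the ligands CSF1, CSF2, IL6, LIF, IL11, IL1A and IL1B and the receptor subunits IL6ST and IL6R. They were taken by gene symbol from the 27234 rows of the deposited exon count table, each had 1 row, and they were selected on their counts in the comparison of siFLI1 with siControl, whose results were already known. Their levels and fold changes in that comparison are therefore given as a description, with no test of their own. The siFLI1 group was 3 libraries of A673 cells transfected with siRNA oligonucleotides against FLI1, and the siControl group 3 libraries of the same line transfected with a scrambled siRNA. RNA was taken 48 h after transfection in both groups, all cells grew in medium with fetal bovine serum, and no cytokine or glucocorticoid treatment is named in the labels. By its title the study deals with ETS proteins and the glucocorticoid receptor, and its single contrast here sets cells with FLI1 targeted against cells without. All 6 libraries come from 1 cell line, and no siRNA sequence was at hand.

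IL6, LIF and IL11 are secreted proteins of 1 family that signal through the shared receptor chain gp130, the product of IL6ST, to the JAK kinases and the transcription factor STAT3. IL6 needs the specific chain IL6R, LIF needs LIFR and IL11 needs IL11RA, while gp130 with OSMR serves oncostatin M. CSF1 (M-CSF) and CSF2 (GM-CSF) drive growth and differentiation of myeloid cells through receptors found mainly on those cells. IL1A and IL1B are alarm cytokines made as precursors without a classical secretion signal, and both bind IL1R1 together with IL1RAP to activate NF-kB. Messenger RNAs of many of these cytokines carry AUUUA repeats in the 3' untranslated region, which proteins of the ZFP36 family bind to speed decay.

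Counts assigned to genes ran from 417145 to 1893606 in siFLI1 libraries and from 1248395 to 1790051 in siControl libraries. The lowest belonged to siFLI1 replicate 3, in which they were 10.1% of the total in the column header, against 41.2% to 61.0% in the other 5. One count was worth 2.68 CPM there, the count scaled to a common library size, and 0.539 to 0.855 CPM elsewhere, so low genes are least precise in that library. FLI1 was at 19.0, 42.5 and 24.1 CPM in replicates 1, 2 and 3 of siFLI1, against 63.0, 69.1 and 62.4 CPM in siControl replicates 1, 2 and 3, with no overlap between the groups. Its log2 fold change was −1.16 ± 0.36 (SE), and the Benjamini-Hochberg adjusted p in edgeR was 0.17. The Ewing markers CD99 and NKX2-2 were detected in every library and summed to 88.4 to 119 CPM in siFLI1 libraries and 114 to 177 CPM in siControl libraries. NKX2-2 averaged 18.1 ± 6.44 CPM after siFLI1 and 36.5 ± 14.5 CPM after siControl (SD, n = 3 each), with overlap between the groups and an edgeR adjusted p of 0.487. Markers of other cells were near the floor: of 5 lymphocyte, 4 endothelial and 3 epithelial genes 0 passed the filter on low counts, and CD3E, NKG7, TEK and KRT19 had 0 counts. The 8 monocyte and macrophage markers summed to 77.2 to 107 CPM in siFLI1 libraries and 50.1 to 63.2 CPM in siControl libraries. CD68 alone of these passed the filter, CD14 had 3 counts in siFLI1 libraries and 1 in siControl libraries, and AIF1 had 0. PTPRC had 16 counts in siFLI1 replicate 3 and 6 in siControl replicate 3, and 0 in the other libraries. The 4 fibroblast markers summed to 51.4 to 104 CPM in siFLI1 libraries and 11.7 to 27.5 CPM in siControl libraries, mostly PDGFRB and FAP, and the part of these marker levels in the results that follow was not tested. In a bulk sample a change in the share of cells that express a gene and a change in RNA per cell cannot be told apart.

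CSF2 and IL6 stood farthest from siControl, CSF1, LIF, IL6ST and IL6R were higher by smaller factors, IL11 and IL1B overlapped between the groups, and IL1A was lower. All 9 genes passed the filter on low counts, so each was among the 9420 tested. In 6 of them every siFLI1 library lay above every siControl library, and in 1, IL1A, every siFLI1 library lay below. Over all tested genes these shares were 8.93% and 7.71%, 16.6% together. Of the 9, 2 (CSF2 and IL6) were past an adjusted p of 0.05 in the fit over the whole table, both higher, where 1.34% of tested genes were called higher and 0.117% lower. Since the list was chosen with this contrast in view, nothing is read from these counts. The median log2 fold change of the 9 was 1.13, against 0.01 for all tested genes. Levels here are trimmed-mean-scaled CPM, and since libraries read 3' ends, levels are compared between libraries and not between genes.

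**Figure D1:**
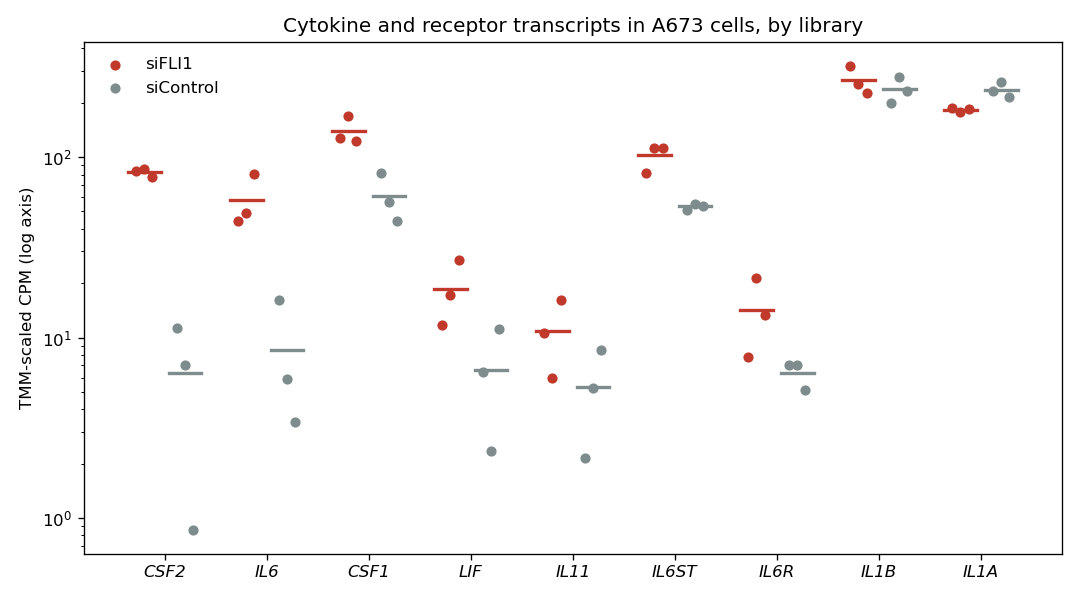
TMM-scaled CPM (log axis) of the 9 genes, library by library, with siFLI1 in red to the left of siControl in grey. Each point is 1 library, and the bar marks the mean of 3. CSF2 was at 77.6 to 85.7 CPM after siFLI1 and 0.855 to 11.3 CPM after siControl, while the points of IL1B overlap.

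The colony-stimulating factors were both higher in siFLI1. CSF2 (row NM_000758, chromosome 5, 132073792 to 132076170, plus strand, hg38), the granulocyte-macrophage factor, had 149, 129 and 29 counts in siFLI1 replicates 1, 2 and 3, against 21, 12 and 1 counts in siControl replicates 1, 2 and 3. This came to 83.3, 85.7 and 77.6 CPM after siFLI1 and 11.3, 7.03 and 0.855 CPM after siControl. The siFLI1 libraries lay close together, whereas the siControl libraries spread widely and rested on 34 counts in all. The means were 82.2 ± 4.13 CPM after siFLI1 and 6.40 ± 5.26 CPM after siControl (SD, n = 3 each), a fitted log2 fold change of 3.58 ± 0.50 (SE; 95% interval 2.52 to 4.64) or 12.0-fold. It was 4.20 without siControl replicate 1, the highest of that group, and 3.15 without siControl replicate 3, the lowest. Without siFLI1 replicate 3, the shallow library, it was 3.61.

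CSF1 (row NM_172211, chromosome 1, 109910611 to 109930994, plus strand), the macrophage factor, was at 128, 169 and 123 CPM in replicates 1, 2 and 3 of siFLI1, against 81.3, 56.2 and 44.4 CPM in siControl replicates 1, 2 and 3. The groups did not overlap, and the lowest siFLI1 library stood at about the same distance above the highest siControl library as the siControl libraries spanned among themselves. Means were 140 ± 25.0 CPM after siFLI1 and 60.7 ± 18.8 CPM after siControl (SD, n = 3 each), with a log2 fold change of 1.21 ± 0.30 (SE; 95% interval 0.57 to 1.84). CSF1 has alternative last exons, and the table counts the exons of 1 transcript only, so other forms may be missed. Their relative CSF3 (G-CSF) failed the filter with 14 counts in siFLI1 libraries and 31 in siControl libraries.

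The promoter of CSF2 is shown because GGAA is the core letters of ETS sites, to which the FLI1 part of the fusion binds. It was searched, with that of IL6 and the IL1 genes, in the RefSeq windows (GRCh38.p14) from 250 bases before to 50 bases after each start, 300 bases in all, on both strands. Motifs were GGAA, the AP-1 motif TGANTCA, the NF-kB consensus GGGRNNYYCC and the glucocorticoid response element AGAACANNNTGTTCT. In these letters N is any base, R is A or G and Y is C or T. Matches had to be exact, so a site that departs from these letters was not counted. Among all 35116 windows, 95.5% held GGAA, 7.71% TGANTCA, 11.3% the NF-kB consensus and 0.00285% the glucocorticoid element. Windows were found for 7 of the 9 genes, all but CSF1 and LIF. Capitals mark GGAA (or TTCC, the same motif on the other strand), TGANTCA and NF-kB, and the NF-kB match in IL6 overlaps one TTCC.
CSF2, chr5:132073539-132073838, plus strand: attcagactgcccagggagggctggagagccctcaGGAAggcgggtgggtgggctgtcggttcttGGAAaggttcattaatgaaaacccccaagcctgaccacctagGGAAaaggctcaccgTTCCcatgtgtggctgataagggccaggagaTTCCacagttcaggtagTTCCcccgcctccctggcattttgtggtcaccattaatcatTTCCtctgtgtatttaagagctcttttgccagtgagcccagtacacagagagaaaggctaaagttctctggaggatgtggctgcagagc
IL6, chr7:22726950-22727249, plus strand: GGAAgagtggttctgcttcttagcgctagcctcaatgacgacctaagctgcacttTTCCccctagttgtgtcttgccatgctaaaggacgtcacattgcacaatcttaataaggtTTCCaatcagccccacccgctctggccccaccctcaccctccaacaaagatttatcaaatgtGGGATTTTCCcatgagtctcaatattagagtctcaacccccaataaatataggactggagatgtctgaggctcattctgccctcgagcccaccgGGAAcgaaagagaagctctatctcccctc
The CSF2 window held GGAA at 7 places, a number reached by 8.29% of windows, and no exact match to the other motifs. Near matches were not searched, so this does not show that CSF2 lacks an NF-kB site. The IL6 window held it at 5 places, which 28.6% of windows reach, and 1 NF-kB match that starts 73 bases before the start site. IL6ST was the other gene with an NF-kB match. The windows of IL11, IL1A, IL1B, IL6ST and IL6R held GGAA at 5, 3, 5, 3 and 4 places, the first of the 2 windows listed for IL1A being counted. The glucocorticoid element was in none of the 7 genes' windows. A match is a run of letters and not a bound site, and these windows leave out distant enhancers.

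Of the IL6 family ligands, IL6 itself differed most. IL6 (row NM_001318095, chromosome 7, 22727142 to 22732002, plus strand), which drives the acute phase response and B cell maturation, had 79, 74 and 30 counts in siFLI1 replicates 1, 2 and 3, against 30, 10 and 4 counts in siControl replicates 1, 2 and 3. In CPM these were 44.2, 49.2 and 80.3 in siFLI1 and 16.2, 5.86 and 3.42 in siControl. The lowest siFLI1 library lay well above the highest siControl library, and the shallow siFLI1 replicate 3 was the highest of its group. Means were 57.9 ± 19.6 CPM after siFLI1 and 8.48 ± 6.76 CPM after siControl (SD, n = 3 each), a log2 fold change of 2.66 ± 0.51 (SE; 95% interval 1.56 to 3.75) or 6.30-fold. It was 3.49 without siControl replicate 1 and 2.33 without siControl replicate 3. IL6 was no longer past the threshold over all genes when siFLI1 replicate 2, siControl replicate 2 or siControl replicate 3 was left out (edgeR adjusted p = 0.0544, 0.132 and 0.0705). Its row overlaps LOC541472 on the other strand, which had 3 counts over all 6 libraries.

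LIF (chromosome 22, 30240447 to 30246851, minus strand), leukemia inhibitory factor, was at 11.7, 17.3 and 26.8 CPM in replicates 1, 2 and 3 of siFLI1, against 6.46, 2.34 and 11.1 CPM in siControl replicates 1, 2 and 3. The groups did not overlap, but siFLI1 replicate 1 and siControl replicate 3 were almost level, and the values rested on 57 counts in siFLI1 and 29 in siControl. LIF had a log2 fold change of 1.43 ± 0.62 (SE), with 95% interval 0.10 to 2.77. IL11 (chromosome 19, 55364382 to 55370463, minus strand), a family member best known for roles in platelet formation and fibrosis, was at 10.6, 5.98 and 16.1 CPM after siFLI1 and 2.15, 5.27 and 8.55 CPM after siControl. The groups overlapped, and the log2 fold change of 0.96 ± 0.69 (SE) had a 95% interval of −0.52 to 2.43. These values rested on 34 counts in siFLI1 and 23 in siControl.

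Further ligands of the family were scarce apart from the subunit EBI3. OSM, CNTF and IL27 had at most 1 count in any library, CTF1 had 11 counts in siFLI1 and 6 in siControl, and CLCF1 had 15 and 12. EBI3, a subunit of interleukin-27, was at 523, 449 and 131 CPM after siFLI1 and 408, 366 and 329 CPM after siControl, with its lowest value in the shallow library and overlap between the groups.

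Of the receptor chains of the IL6 family, IL6ST, IL6R and OSMR had every siFLI1 library above every siControl library, the interval of IL6R crossed 0, and LIFR and IL11RA overlapped between the groups. IL6ST (chromosome 5, 55935097 to 55994993, minus strand), the shared chain gp130, was at 81.6, 112 and 112 CPM in replicates 1, 2 and 3 of siFLI1, against 51.2, 55.0 and 53.8 CPM in siControl replicates 1, 2 and 3. The siControl libraries were almost level and every siFLI1 library lay above them. Means were 102 ± 17.7 CPM after siFLI1 and 53.4 ± 1.99 CPM after siControl (SD, n = 3 each), a log2 fold change of 0.92 ± 0.27 (SE; 95% interval 0.34 to 1.51).

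IL6R (chromosome 1, 154405193 to 154469450, plus strand), the IL6-specific chain, was at 7.83, 21.3 and 13.4 CPM after siFLI1 and 7.00, 7.03 and 5.13 CPM after siControl, from 51 and 31 counts. The gap between the groups was under 1 CPM, less than the worth of 2 counts in any of these libraries. The log2 fold change of 1.13 ± 0.57 (SE; 95% interval −0.10 to 2.36) was 0.63 without siFLI1 replicate 2.

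Among receptors outside the 9 genes, OSMR, which pairs with gp130 for oncostatin M, was at 131 ± 21.1 CPM after siFLI1 and 69.1 ± 10.2 CPM after siControl (SD, n = 3 each). Its groups did not overlap, and its log2 fold change of 0.91 ± 0.27 did not pass (edgeR adjusted p = 0.152). LIFR was at 21.8 ± 3.39 CPM after siFLI1 and 20.2 ± 8.37 CPM after siControl, with 0.08 ± 0.45 (95% interval −0.89 to 1.05). IL11RA had 7 counts in siFLI1 and 10 in siControl. Of 4 tested family genes beyond the 9, edgeR, DESeq2 and limma-voom called 0, and OSMR was the 1 higher gene at an unadjusted p below 0.05 in edgeR.

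**Figure D2:**
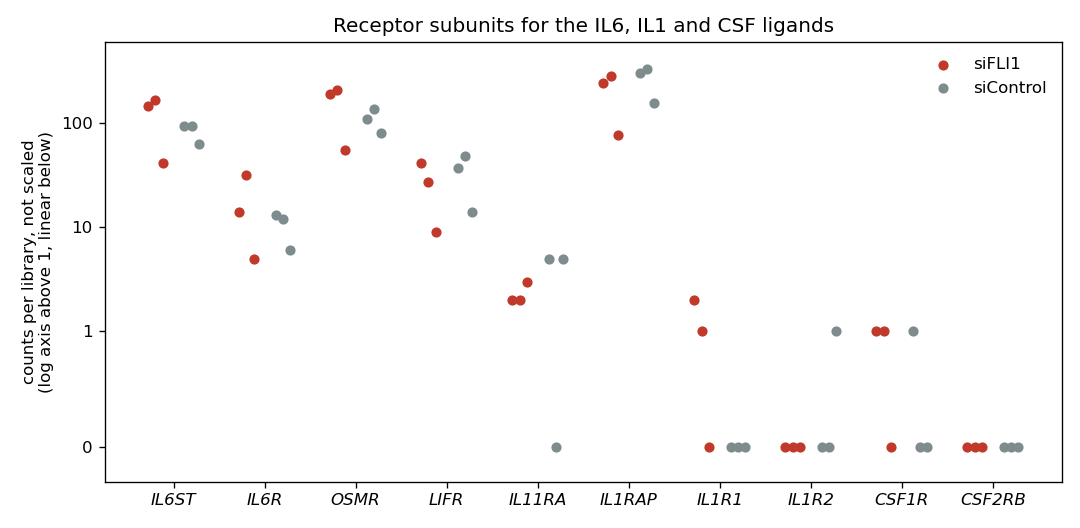
Counts of 10 receptor subunits in each library, not scaled for depth, on an axis that is logarithmic above 1 and linear below. Points are the 3 libraries of siFLI1 (red, left) and of siControl (grey, right). IL6ST, OSMR, LIFR and IL1RAP had 9 or more counts in every library, while IL1R1 had 3 counts in siFLI1 and 0 in siControl and CSF2RB had 0 in both.

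The IL1 genes stood apart from the rest of the list. IL1A and IL1B are neighbours on chromosome 2, minus strand, with 44361 bases between their rows. IL1B (112829760 to 112836779) was at 321, 254 and 228 CPM in replicates 1, 2 and 3 of siFLI1, against 200, 279 and 233 CPM in siControl replicates 1, 2 and 3. The groups were fully mixed, with means of 267 ± 48.1 CPM after siFLI1 and 238 ± 39.9 CPM after siControl (SD, n = 3 each). Its log2 fold change was 0.18 ± 0.25 (SE), and its 95% interval of −0.37 to 0.72 leaves out a 2-fold change in either direction.

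IL1A (112773915 to 112785398) was at 187, 177 and 185 CPM in replicates 1, 2 and 3 of siFLI1, against 232, 261 and 215 CPM in siControl replicates 1, 2 and 3. The siFLI1 libraries were close together and all below siControl, which makes IL1A the 1 gene of the 9 with a negative log2 fold change, −0.37 ± 0.24 (SE; 95% interval −0.88 to 0.13). The interval includes 0, and it too leaves out a 2-fold change. Both genes had at least 69 counts in every library, more than CSF2 or IL6 had in the shallow one.

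The promoters of this pair are printed beside those of CSF2 and IL6 because levels of this pair did not follow theirs. Capitals mark the same motifs, and the IL1A window belongs to a RefSeq start that lies inside the counted row, downstream of the row's 5' end.
IL1A, chr2:112784444-112784743, minus strand: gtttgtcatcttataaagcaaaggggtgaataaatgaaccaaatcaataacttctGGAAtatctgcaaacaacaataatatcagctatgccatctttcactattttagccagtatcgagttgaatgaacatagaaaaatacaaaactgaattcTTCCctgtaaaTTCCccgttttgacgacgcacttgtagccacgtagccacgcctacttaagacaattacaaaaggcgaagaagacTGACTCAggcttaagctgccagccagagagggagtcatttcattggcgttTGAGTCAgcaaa
IL1B, chr2:112836730-112837029, minus strand: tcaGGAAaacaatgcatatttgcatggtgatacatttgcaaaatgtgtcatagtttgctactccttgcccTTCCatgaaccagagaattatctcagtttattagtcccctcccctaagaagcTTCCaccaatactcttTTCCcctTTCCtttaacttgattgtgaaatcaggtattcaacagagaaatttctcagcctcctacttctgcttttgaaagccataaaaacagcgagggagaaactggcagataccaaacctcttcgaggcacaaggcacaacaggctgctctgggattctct
The IL1A window held TGANTCA at 2 places, on either side of the start site, and GGAA at 3 places. TGANTCA was not particular to IL1A, since the windows of IL11 and IL6R, not printed, held it at 1 place each. The IL1B window held GGAA at 5 places, as many as IL6, and neither TGANTCA nor the NF-kB consensus.

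Receptors for IL1 were nearly undetected apart from the accessory chain. IL1RAP was at 179 ± 36.9 CPM after siFLI1 and 165 ± 29.1 CPM after siControl (SD, n = 3 each), with a log2 fold change of 0.10 ± 0.26 (95% interval −0.46 to 0.67). IL1R1, the signalling receptor, had 3 counts in siFLI1 and 0 in siControl, and the decoy IL1R2 had 0 and 1. IL1RN, the receptor antagonist, had 6 counts, all in siFLI1 replicate 1, and 0 in siControl. A count of 0 allows 1.68 to 8.03 CPM per siFLI1 library and 1.62 to 2.56 CPM per siControl library (3 counts, counting error only).

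IL18, a related cytokine named after its values were seen, had 28, 10 and 5 counts in siFLI1 replicates 1, 2 and 3, against 0 in each siControl library. Scaled to depth, the observed siFLI1 counts were 18.5-fold above 3 counts, taken as the most that the siControl group could hide. Error in the siFLI1 counts is left out of this ratio, so the true ratio may be lower. IL18 failed the filter on low counts, and with no filter it passed (edgeR adjusted p = 0.000286 over 18819 genes). IL33 was at 46.6 ± 20.6 CPM after siFLI1 and 48.7 ± 19.2 CPM after siControl (SD, n = 3 each). SIGIRR, an inhibitory receptor of the family, had a log2 fold change of 0.95 ± 0.37 (edgeR adjusted p = 0.351) with overlap between the groups.

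Receptors for the colony-stimulating factors were at the floor in both groups. CSF1R, the receptor of CSF1, had 2 counts in siFLI1 and 1 in siControl, and CSF2RB, the signalling chain for CSF2, had 0 and 0. CSF2RA had 0 counts as well, but its row lies in a region shared by chromosomes X and Y, where reads can be lost to multiple placement. KITLG, the ligand of KIT, was at 18.4 ± 15.7 CPM after siFLI1 and 10.3 ± 8.03 CPM after siControl, and FLT3LG at 6.14 ± 3.59 and 9.41 ± 6.36 CPM in the same order (SD, n = 3 each). Neither passed (edgeR adjusted p = 0.729 and 0.82). KITLG had a log2 fold change of 0.95, which became 0.072 on leaving out siFLI1 replicate 2, 0.41 on leaving out siControl replicate 2, 1.44 on leaving out siControl replicate 1 and 1.83 when siFLI1 replicate 3 went with the last. FLT3LG was at −0.70, which became −0.047 on leaving out siControl replicate 1, −0.19 on leaving out siFLI1 replicate 2, −1.08 on leaving out siControl replicate 2 and −1.23 on leaving out siFLI1 replicate 1. Of 14 growth factors and receptors of this kind beyond the 9 genes, these 2 passed the filter.

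In the wider pathway, 114 genes in 8 lists were looked up, 62 were tested, and 2 were called, both higher and both RNA-binding proteins that bind AUUUA repeats. Called genes were 1.45% of all tested. ZFP36L1 was at 164, 163 and 145 CPM in replicates 1, 2 and 3 of siFLI1, against 57.1, 31.6 and 38.5 CPM in siControl replicates 1, 2 and 3. It rose by 1.89 ± 0.29 on the log2 scale (SE), with an edgeR adjusted p of 0.00262. ZFP36L2 was at 92.3, 110 and 80.3 CPM after siFLI1 and 22.6, 29.3 and 18.8 CPM after siControl, and rose by 2.0 ± 0.31 (edgeR adjusted p = 0.00272). The groups were far apart for both genes, and both were past the threshold in all 14 alternative fits. ZFP36 itself, the family's best-known member, was at 14.6 ± 3.64 CPM after siFLI1 and 9.20 ± 4.24 CPM after siControl (SD, n = 3 each), with 0.69 ± 0.53. These 2 were the calls among 12 tested genes of cytokine mRNA turnover, whose median log2 fold change was 0.13.

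**Figure D3:**
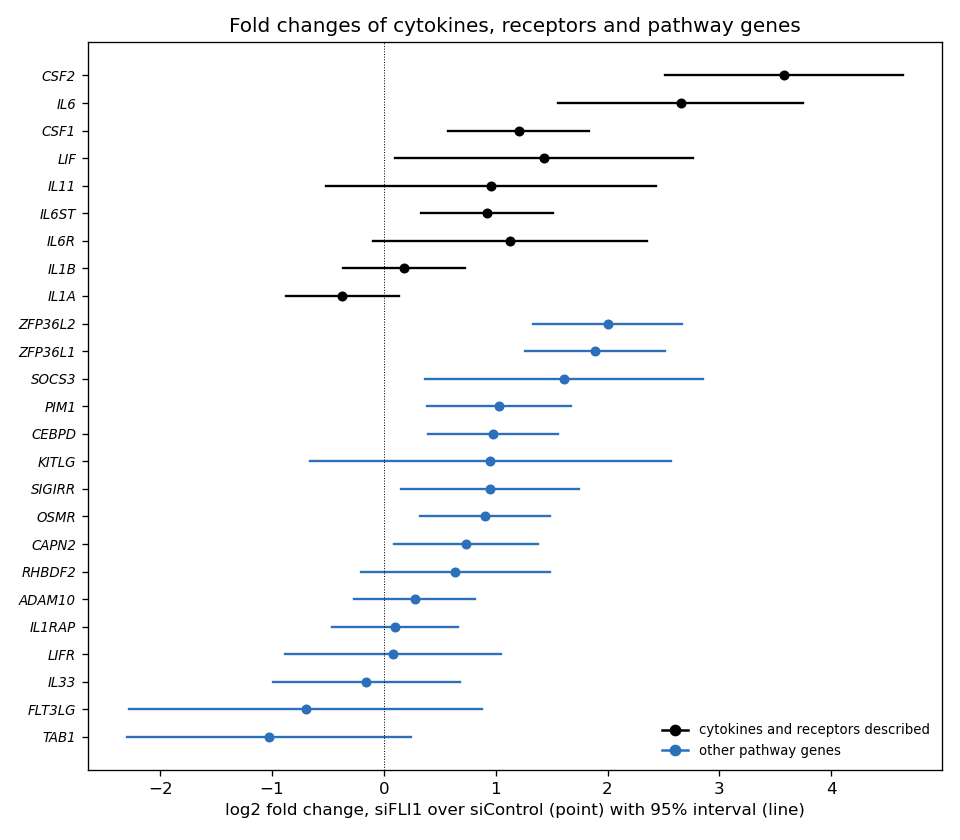
Log2 fold change of siFLI1 over siControl (points) with 95% interval (lines, each for its gene alone). The 9 genes are in black and a choice of the tested pathway genes named in the text in blue. EBI3, ZFP36, JAK1, STAT3, MCL1, CASP1 and MYD88 are not drawn. CSF2 at 3.58 and IL6 at 2.66 lie farthest to the right, and ZFP36L2 at 2.0 and ZFP36L1 at 1.89 lead the pathway genes. The black lines of IL11, IL6R, IL1B and IL1A cross 0. So do the blue lines of KITLG, RHBDF2, ADAM10, IL1RAP, LIFR, IL33, FLT3LG and TAB1.

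Signalling genes downstream of gp130 gave 0 calls in edgeR. Of 11 tested JAK, STAT and SOCS genes, an unadjusted p below 0.05 was reached by 1 gene in each direction, and DESeq2 and limma-voom also called 0. The higher gene was SOCS3, a feedback inhibitor that STAT3 induces, at 20.5 ± 4.60 CPM after siFLI1 and 6.60 ± 4.49 CPM after siControl (SD, n = 3 each), with 1.61 ± 0.58 (edgeR adjusted p = 0.288). JAK1 and STAT3 had log2 fold changes of −0.07 ± 0.26 and −0.25 ± 0.43. The median of the 11 genes was −0.066, with 3 above 0 and 8 below.

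Among 11 tested STAT3 and acute phase target genes edgeR, DESeq2 and limma-voom called 0, and in edgeR 3 higher genes and 1 lower gene had an unadjusted p below 0.05. CEBPD, a transcription factor of the acute phase, was at 156 ± 24.1 CPM after siFLI1 and 79.7 ± 17.3 CPM after siControl (SD, n = 3 each), with 0.98 ± 0.27 (edgeR adjusted p = 0.117). The kinase PIM1 was at 85.5 ± 7.17 CPM after siFLI1 and 42.4 ± 10.6 CPM after siControl, with 1.03 ± 0.30 (edgeR adjusted p = 0.137). The groups overlapped for neither gene. CEBPD was called without both siFLI1 replicate 3 and siControl replicate 1 (edgeR adjusted p = 0.0237). The lower gene, MCL1, was at 98.8 ± 27.9 CPM after siFLI1 and 166 ± 27.2 CPM after siControl, also without overlap. Its log2 fold change was −0.72 ± 0.28 (edgeR adjusted p = 0.337). The median of the 11 genes was 0.015, with 6 above 0 and 5 below.

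Genes that process IL1 or carry its signal did not pass either. Of 16 tested, edgeR, DESeq2 and limma-voom called 0, and 1 was higher at an unadjusted p below 0.05, CAPN2, a subunit of calpain, the protease that cleaves the IL1A precursor, at 0.73 ± 0.30 (edgeR adjusted p = 0.385). TAB1, an activator of the kinase TAK1, was at −1.03 ± 0.59 (edgeR adjusted p = 0.596). CASP1, which cleaves the IL1B precursor, was at 19.9 ± 8.24 CPM after siFLI1 and 13.4 ± 5.07 CPM after siControl (SD, n = 3 each). The adaptor MYD88 was at 11.4 ± 1.70 CPM after siFLI1 and 16.7 ± 7.91 CPM after siControl. Of 3 tested sheddases of cytokines and receptors 0 were called by the same 3 tools and 0 were at an unadjusted p below 0.05 in edgeR. ADAM10 was at 0.28 ± 0.25 on the log2 scale and RHBDF2 at 0.64 ± 0.39.

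Because 2 AUUUA-binding genes rose, the 3' untranslated regions of the 9 transcripts were read for that pentamer (ATTTA in DNA letters). The coding GENCODE 29 transcript (GRCh38) was used whose 3' end lay within 50 bases of the row's 3' end, which gave one for all 9 genes and for 7595 tested genes. CSF2 held 8 pentamers in 318 bases, 25.2 per kb, a density that 0.0922% of the tested genes reach. IL6 held 6 in 429 bases (14.0 per kb, reached by 0.606%) and IL1B 6 in 610 bases (9.84 per kb, reached by 1.42%). IL11 had 5.56 per kb and IL1A 4.34 per kb, while CSF1, LIF, IL6ST and IL6R lay between 1.47 and 3.84 per kb, against a median of 1.85 per kb over tested genes. IL6ST held 23, but in 5987 bases. High density was found both in CSF2 and IL6, which differed most between the groups, and in IL1B, whose groups overlapped. By another count, of a 9-base motif that holds the pentamer, the order differed. IL11, whose groups also overlapped, held it at 6 places, reached by 0.0527% of tested genes. CSF2 held it at 3 (reached by 0.421%), and LIF and IL1B at 2 each. IL6, CSF1, IL1A, IL6ST and IL6R held 0. Whether ZFP36L1 or ZFP36L2 binds the 9 transcripts or changes their decay was not tested.
The densest stretches are printed to show how the pentamers are packed, with each pentamer in capitals.
CSF2: ATTTATTTATTTATTTATTTA
IL11: ATTTATTTATTTA
IL1B: ATTTATTTATTTA
IL6: ATTTAttaatATTTA
IL1A: ATTTAtatatgtATTTAtaaatatATTTA
In CSF2 5 pentamers overlap end to end in 21 bases, and IL11 and IL1B share the same run of 13 bases with 3. In IL6 the 2 pentamers of this stretch are separate.

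**Figure D4:**
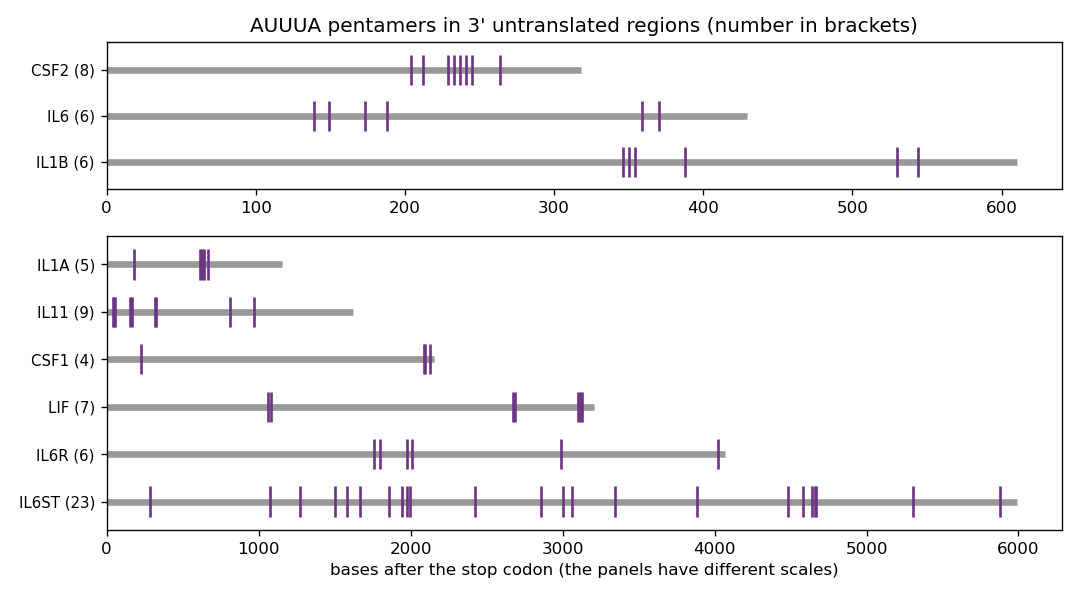
Place of each AUUUA pentamer (purple ticks) along the 3' untranslated region (grey bars) of the 9 transcripts, in bases after the stop codon, with short regions in the upper panel and long ones in the lower panel on another scale. CSF2 has 8 pentamers in 318 bases and IL6ST 23 in 5987 bases.

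Across the 6 libraries CSF1, CSF2 and IL6 followed one another closely, with Pearson's r of 0.97 for CSF1 with CSF2, 0.95 for CSF1 with IL6 and 0.96 for CSF2 with IL6 on log2 CPM. These r values hold the difference between the groups, which all 3 genes were chosen with, and the libraries' shared depth. Within siControl the order was also shared, with replicate 1 the highest and replicate 3 the lowest for each of the 3 genes. Within siFLI1 it was not, since replicate 3 was the lowest for CSF1 (123 CPM) and CSF2 (77.6 CPM) and the highest for IL6 (80.3 CPM). IL1B was not aligned with any of them, with r from 0.11 to 0.32, and IL1A ran the other way, with r from −0.81 to −0.75.

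Of the 8339 tested genes with a mean of at least 10 CPM, those with a pattern most like CSF2 were POFUT2, GPC6 and CXCL2 (r from 0.989 to 0.998 over the 6 libraries). For IL6 they were FN1, DCBLD2 and UBE2H (0.986 to 0.998), for CSF1 ARSJ, SMG1 and APMAP (0.981 to 0.986) and for LIF OGFRL1, HMGA2 and IFI27L2 (0.967 to 0.982). For IL6ST they were PTGS2, CNPY4 and C11orf91 (0.987 to 0.989), for IL6R APOBEC3G, RPL31P11 and RCN2 (0.975 to 0.989) and for IL11 EPS8, COX6C and PDE8A (0.986 to 0.992). For IL1A they included KLHL23 and MAPK6 (0.983 and 0.977) and for IL1B REEP3, IKBKAP and RABL3 (0.973 to 0.983). With 6 libraries and so many candidates some genes reach such values for any pattern, so these describe likeness only.

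**Figure D5:**
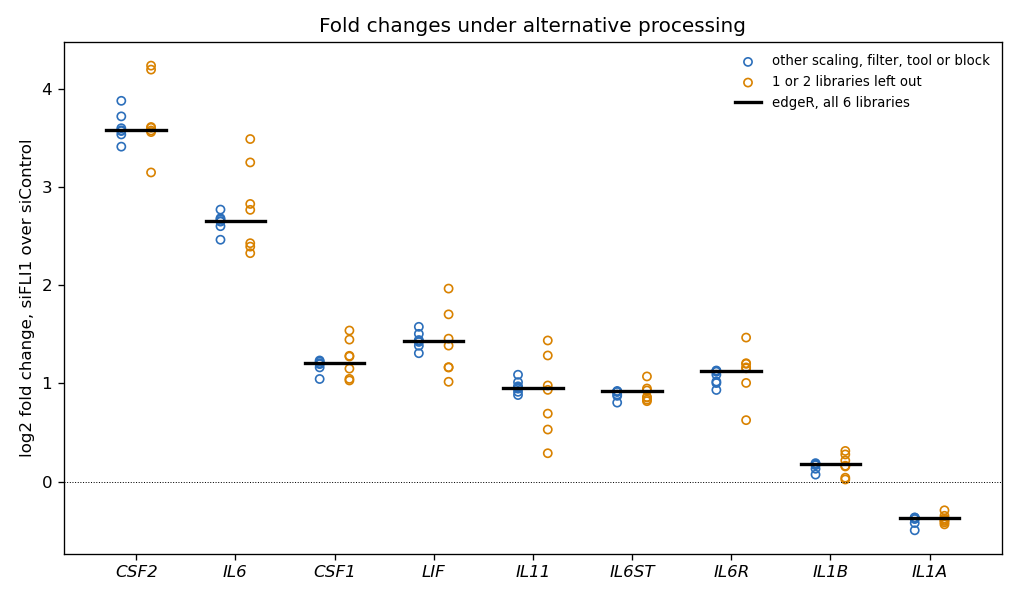
Log2 fold change of siFLI1 over siControl for the 9 genes with all 6 libraries in edgeR (black bars), under other scalings, filters, tools or a replicate block (blue), and with 1 or 2 libraries left out (orange). CSF2 ran from 3.15 to 4.24 and IL6 from 2.33 to 3.49, and the values of IL1B, from 0.02 to 0.31, stayed close to 0.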

How the data were processed

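RNA was measured in 6 libraries of A673 cells, 3 per group. Per the labels' protocols, a derivative of MARS-seq was used, a 3'-end method with molecular barcodes. The authors deposited raw counts per gene over exons in 1 table, with 1 RefSeq transcript per gene. Per the submitters' processing notes, bcl2fastq, HISAT 0.1.5, HOMER and hg38 were used, with no role given. Barcode collapsing and strand use are not stated, so PCR copies may be included. Floors cover counting error only, while intervals also take in the spread between libraries. Nothing in the labels says that libraries came from separate cultures, so the spread behind each p-value may be technical.

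Genes were kept by filterByExpr (minimum count 10, minimum total 15) and scaled by TMM (trimmed mean of M values) to CPM, counts scaled to effective library size. The test was edgeR 4.0.16 under R 4.3.3 (quasi-likelihood, robust, two-sided, Benjamini-Hochberg over 9420 genes, threshold 0.05). SEs and 95% intervals come from its F statistic. Alternatives were DESeq2 size factors, total counts, 2 other filters, DESeq2 1.42.0, limma-voom (3.58.1), a replicate block, and leaving out libraries. Likeness used log2 CPM with a prior count of 2.

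The genes, pathway lists, motifs and libraries left out together were chosen with earlier results of these data known, and motifs after the levels were seen. Named genes are FLI1, the 9 genes, their receptor chains and IL1RN, called list genes (at least the 2 smallest p per list) and the 3 most alike genes. EBI3, CSF3, ZFP36, JAK1, STAT3, MCL1, CASP1, MYD88, IL18 and scarce ligands were added after their values were seen. On simulated counts with known changes in this comparison (9113 genes tested), edgeR called 19.0% of 2-fold, 68.8% of 4-fold and 95.5% of 8-fold changes, and 4.76% of its calls were false. Some genes that the naming rule selects are not reported here.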

Additional observations from a re-analysis of the deposited data

How the results depend on the processing

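CSF2 was past the threshold in all 14 alternative fits and IL6 in 11. CSF1 was past it in 4: with no filter (edgeR adjusted p = 0.0217), in DESeq2 (0.0283), without siControl replicate 1 (0.0388) and without both siFLI1 replicate 3 and siControl replicate 1 (0.0108), in a range up to 0.33. The number of the 9 genes past it was 1 to 3 when 1 library was left out, and 1 was CSF2, in the 3 fits where IL6 was lost. No direction of the 9 genes turned in these fits. Over all genes, 137 were called, 368 with no filter and 217 in DESeq2, and 65 (without siControl replicate 2) to 126 (without siFLI1 replicate 3) with 1 library left out. The pathway count was 2 in each of those 6 fits and 4 without both siFLI1 replicate 3 and siControl replicate 1, where IL18 and CEBPD were added. With no filter, and with a filter of at least 5 CPM in 3 libraries, the pathway count was 3, IL18 being added in each. Same-numbered libraries did not deviate together (correlations of −0.047, −0.012 and −0.026), so the numbers were not taken as pairs. With the replicate block 101 genes were called, and CSF2, IL6, ZFP36L1 and ZFP36L2 were still past the threshold. Uncalled genes near 0 changed sign, and the cause was not tested. LIFR (0.08) was at −0.043 under total counts and −0.0091 without both libraries, and ran from −0.17 to 0.42 with 1 left out. IL1RAP (0.10) was at −0.026 under total counts and −0.022 without both, and ran from −0.023 to 0.26 with 1 left out, and IL33 (−0.16) ran from −0.47 to 0.19. Total counts moved the median of all tested genes to −0.12, and the 9 genes kept their direction. LIF, IL11 and IL6R rest on 29, 23 and 31 counts in siControl.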
